A study of Mus musculus with 108 samples.

Results

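The regions described here are long stretches of the mouse liver genome that carried the Polycomb-type chromatin state in 3 groups of animals. Each group was represented by 1 segmentation of the genome into bins of 200 bp, and each bin had been given 1 of 8 chromatin states. State 6, named repressed Polycomb in the study, stands for H3K27me3 without the 3 other marks profiled. An autosomal bin was taken where its label was state 6 in all 3 segmentations, adjacent bins were merged, and unbroken stretches of 20 kb or more were kept. The members were thus chosen by the measured state labels themselves, so that state 6 inside them is the selection and not a result. This gave 1309 domains out of 6131 autosomal stretches of any length that shared state 6 in all groups.

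The livers came from female C57BL/6 mice, fixed in formalin and embedded in paraffin, and chromatin immunoprecipitation was followed by sequencing for H3K4me3, H3K27me3, H3K27ac and H3K4me1. The group SD 3m held 8 mice on a standard diet at 3 months of age with 30 libraries, SD 12m held 8 mice on a standard diet at 12 months with 29 libraries, and CR 12m held 9 mice at 12 months with 29 libraries, fed 30% fewer calories from 3 months of age onwards. The H3K27me3 mark that defines state 6 rested on 7 libraries for SD 3m, 8 for SD 12m and 6 for CR 12m. The segmentations had been made after merging the libraries of a group, so no spread between animals exists for any value below, no test between groups was possible, and differences between groups are descriptions of 3 merged data sets. The read depth behind each merged data set is unknown. A further group of 6 mice at 6 months was not analysed here.

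Polycomb proteins act in 2 main complexes. PRC2 places methyl groups on lysine 27 of histone H3, and PRC1 binds the mark and compacts chromatin. In mammals PRC2 is drawn to CpG islands free of DNA methylation, and in adult tissues its largest territories cover genes that direct the building of other organs, such as the Hox clusters. Liver is made mostly of hepatocytes, with endothelial cells, Kupffer cells (the resident macrophages), stellate cells, cells of the bile ducts and lymphocytes, and a segmentation of whole liver reads all of them together, so that fewer cells with a mark and less of the mark per cell cannot be told apart.

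States 1 and 2 stand for active and flanking TSS, 3 and 4 for active enhancers, 5 for poised enhancers, 7 for repeats and lamina-associated chromatin, and 8 for quiescent chromatin. In the study, state 7 carried weak H3K4me3 and a minimal signal of H3K27me3. The labels were first set against genes whose state in liver is known. The transcription start sites (TSS) of Alb and Apoa1, which encode the main plasma protein albumin and an apolipoprotein of HDL, lay in state 4 in all groups for Alb and in states 4, 1 and 3 in SD 3m, SD 12m and CR 12m for Apoa1. The hepatocyte markers Ttr, Serpina1a and Fga also lay in states 1 to 4 in each group. The TSS of Pax6, a regulator of eye and brain development, lay inside a domain of 57.0 kb, and that of Neurod1, a neuronal factor, lay in state 6 in all groups but in a stretch too short to be a member. Among 16 endothelial and Kupffer cell markers 1 had its TSS in a domain, Clec4f, a lectin of Kupffer cells, in 30.2 kb of unbroken state 6. Among 20 stellate, biliary and lymphoid markers 1 did so, Cd3e, a chain of the T cell receptor complex, in 21.2 kb. These shares, 6.25% and 5%, rest on 1 gene each and stand near the 3.64% of all autosomal TSS. In the same 2 lists 7 and 4 markers were in states 1 to 5 in all groups, and 4 and 6 were in state 6 in some groups only. Of all 24963 autosomal TSS 14078 and 2994 were so, respectively.

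The promoters of 6 genes inside the domains are given first, as single examples of the CpG content that is counted below. They were taken from RefSeq (GRCm38.p6, the mm10 assembly), from 250 bases before to 50 bases after the TSS on the gene's own strand, as the matched gene closest to the centre of the longest domain in each of 6 gene lists. Only TSS matched to a RefSeq promoter could be taken. In domains these were 16 of 28 Hox TSS and 14 of 22 Fox, Sox and Tbx TSS. This choice was made after the domains were known. Capitals mark CG dinucleotides.
Hoxc4 (chr15:103034145-103034444, plus strand): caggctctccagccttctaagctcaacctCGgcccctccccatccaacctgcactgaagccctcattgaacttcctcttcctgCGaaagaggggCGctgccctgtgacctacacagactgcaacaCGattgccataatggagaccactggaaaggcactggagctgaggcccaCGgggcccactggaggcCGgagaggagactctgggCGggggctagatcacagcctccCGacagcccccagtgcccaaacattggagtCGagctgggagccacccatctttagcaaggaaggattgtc
Nkx2-1 (chr12:56536859-56537158, minus strand): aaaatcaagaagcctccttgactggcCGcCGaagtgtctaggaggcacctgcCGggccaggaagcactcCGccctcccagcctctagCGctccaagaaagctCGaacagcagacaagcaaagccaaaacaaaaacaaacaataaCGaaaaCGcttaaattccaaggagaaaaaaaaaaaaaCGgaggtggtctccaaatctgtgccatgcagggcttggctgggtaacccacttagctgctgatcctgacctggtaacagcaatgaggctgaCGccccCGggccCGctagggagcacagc
Sox1 (chr8:12395269-12395568, plus strand): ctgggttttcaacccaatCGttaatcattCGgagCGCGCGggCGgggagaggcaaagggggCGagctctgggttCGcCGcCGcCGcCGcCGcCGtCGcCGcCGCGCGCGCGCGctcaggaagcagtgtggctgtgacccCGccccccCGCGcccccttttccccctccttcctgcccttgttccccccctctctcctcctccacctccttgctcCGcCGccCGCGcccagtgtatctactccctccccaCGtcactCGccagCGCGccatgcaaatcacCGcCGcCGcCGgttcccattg
Olig3 (chr10:19356289-19356588, plus strand): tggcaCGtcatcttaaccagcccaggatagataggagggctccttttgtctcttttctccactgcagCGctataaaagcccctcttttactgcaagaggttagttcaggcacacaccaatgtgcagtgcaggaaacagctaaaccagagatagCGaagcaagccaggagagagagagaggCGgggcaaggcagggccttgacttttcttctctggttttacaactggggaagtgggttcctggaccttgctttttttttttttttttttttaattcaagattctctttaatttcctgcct
Krtap2-4 (chr11:99614797-99615096, minus strand): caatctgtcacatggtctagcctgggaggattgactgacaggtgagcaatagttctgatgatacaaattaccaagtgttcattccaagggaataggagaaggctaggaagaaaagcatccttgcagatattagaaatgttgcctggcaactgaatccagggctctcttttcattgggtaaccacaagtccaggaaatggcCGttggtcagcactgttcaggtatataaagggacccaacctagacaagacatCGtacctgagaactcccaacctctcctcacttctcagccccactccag
Olfr156 (chr4:43821384-43821683, minus strand): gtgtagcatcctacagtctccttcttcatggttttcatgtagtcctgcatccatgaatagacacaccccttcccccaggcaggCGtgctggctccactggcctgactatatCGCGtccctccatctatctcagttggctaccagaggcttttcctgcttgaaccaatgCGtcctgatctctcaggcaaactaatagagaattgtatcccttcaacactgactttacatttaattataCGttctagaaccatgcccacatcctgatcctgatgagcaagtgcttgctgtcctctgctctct

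The Sox1 promoter held 37 CG dinucleotides in 300 bases, that of Nkx2-1 12 and that of Hoxc4 9. Olig3 held 4, Olfr156 held 5 and Krtap2-4 held 2. Sox1, Nkx2-1, Hoxc4 and Olig3 encode transcription factors of development, Krtap2-4 encodes a protein of the hair shaft, and Olfr156 an odorant receptor. The letters TATAAA, on either strand, occurred in the promoters of Olig3 and Krtap2-4 and not in the other 4, and in 13.1% of the 18236 autosomal promoters matched.

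The domains covered 52.9 Mb, or 2.15% of the autosomal bins, and held 59.7% of all bases that shared state 6 in the 3 groups. Their median length was 31.6 kb, with quartiles at 24.4 and 45.8 kb, against a median of 8.40 kb for all shared stretches. There were 591 domains under 30 kb, 279 of 50 kb or more and 51 of 100 kb or more, and those 51 covered 6.82 Mb. No break in the lengths marked the limit of 20 kb: 177 shared stretches measured from 18 kb to just under 20 kb and 156 domains from 20 kb to just under 22 kb. The 3 stretches just outside the limit measured 19.8 kb each and the 3 domains just inside it 20 kb each.

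**Figure D1:**
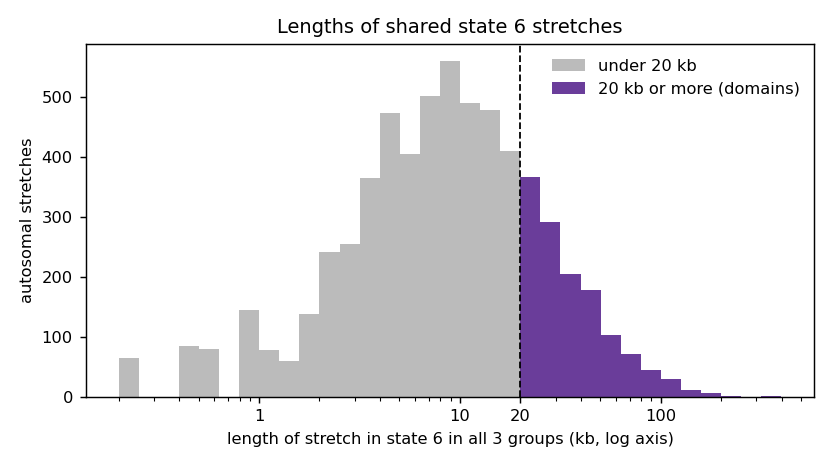
Number of autosomal stretches (vertical axis) by length in kb (horizontal log axis) for bins in state 6 in SD 3m, SD 12m and CR 12m. Grey bars are stretches under 20 kb and purple bars the 1309 domains, which form the upper part of a single distribution that reaches 321.2 kb.

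The domains made up different parts of each group's Polycomb chromatin. Autosomal state 6 covered 204 Mb for SD 3m, 305 Mb for SD 12m and 232 Mb for CR 12m, of which the domains were 26.0%, 17.4% and 22.8%. Stretches of 20 kb or more in a single group numbered 3051 for SD 3m, 4614 for SD 12m and 3528 for CR 12m. A domain lay in 40.2%, 25.2% and 33.6% of these long stretches, respectively.

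Chromosomes differed in how much of them the domains occupied. The share was highest on chromosome 2, with 4.45% of its bins in 189 domains, followed by chromosome 9 with 4.03% in 133 domains and chromosome 11 with 3.53% in 96 domains. It was lowest on chromosome 16, with 0.519% in 17 domains. Domains also lay close together in places. The median gap to the next domain on the same chromosome was 337 kb, but 378 domains (28.9%) stood in 168 chains whose gaps were 20 kb or less. In these gaps 41.8% of bins were state 6 for SD 3m, 58.3% for SD 12m and 53.6% for CR 12m, and most of the rest was state 8, the quiescent state.

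The longest domain, chr15:102738401-103059600, was 321.2 kb and contained the whole Hoxc cluster, from Hoxc13 to Hoxc4, with the long noncoding RNA gene Hotair and the microRNA genes Mir196a-2 and Mir615. The second, chr12:56353601-56567000 of 213.4 kb, contained Nkx2-1, which directs thyroid, lung and forebrain development. The third, chr2:74613801-74822000 of 208.2 kb, contained the Hoxd cluster with Evx2 and the microRNA gene Mir10b. The fourth, chr11:85865001-86055400 of 190.4 kb, contained Tbx4, a T-box factor of the hindlimb and lung. The ninth, chr11:96143801-96303000 of 159.2 kb, held the posterior part of the Hoxb cluster, and the 14th, chr5:101622801-101765800 of 143.0 kb, held Nkx6-1, a factor of beta cells and motor neurons, together with Cds1, an enzyme of phospholipid synthesis.

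The other domains among the 15 longest were of other kinds. Clusters of keratin genes, which encode the filaments of epithelium and hair, took the fifth (187.6 kb), the seventh (166.8 kb) and the 11th (154.0 kb). The sixth, chr2:133559001-133745000 of 186.0 kb, overlapped the annotated span of Bmp2, a secreted growth factor, but its edge lay 6.84 kb from the Bmp2 TSS used here and its only TSS was that of Mir3090. The 12th, chr14:67234401-67378000 of 143.6 kb, likewise overlapped Ebf2, a factor of brown fat and neurons, with the Ebf2 TSS 1.11 kb outside it. The eighth, chr6:53614601-53779200 of 164.6 kb, overlapped the end of Creb5, 327 kb from the Creb5 TSS, with 52.7% of its bases in annotated genes, and held no TSS. The 13th held the TSS of Dnah14, an axonemal dynein, and the 15th that of Skap1, an adaptor of T cells. The 10th, of 155.6 kb, overlapped no annotated gene.

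Of 24963 autosomal RefSeq genes, each counted at the TSS of its longest curated transcript, 909 (3.64%) had the TSS in a domain. They were 709 of 20021 protein-coding genes, 154 of 3220 long noncoding RNA genes and 35 of 1136 microRNA genes. A TSS was missing from 721 domains (55.1%), 417 held 1 and 171 held 2 or more. Median length was 28.6 kb, 34.6 kb and 50 kb for the 3 kinds. Among the 721 domains without a TSS, 188 lay wholly inside protein-coding genes. In all, 220 domains overlapped no annotated gene.

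The lists of developmental transcription factors had a large share of their genes in domains. The 5 lists of Hox, other homeodomain, Fox, Sox and Tbx, bHLH and zinc finger factors together held 333 autosomal genes, of which 146 (43.8%) had the TSS in 116 domains, beside 3.64% of all genes. A further 27 lay in state 6 in all groups in shorter stretches, 85 in state 6 in some groups only, and 56 in states 1 to 5 in all groups. Over all 24963 TSS these counts were 619, 2994 and 14078. These 116 domains were 8.86% of all domains and 13 of the 51 domains of 100 kb or more. Of all domains 245 (18.7%) held or lay within 100 kb of such a TSS, and 19.97% of domain bins lay within that distance, against 2.257% of all autosomal bins. Among protein-coding genes in none of the lists 2.48% had the TSS in a domain.

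Among homeodomain factors outside the Hox clusters, 61 of 119 (51.3%) had the TSS in a domain. The longest belonged to Nkx2-1, Evx2 and Nkx6-1, followed by Evx1 (128.4 kb, with the posterior Hoxa genes), the neighbours Six2 and Six3 (125.0 kb), factors of kidney and forebrain, Otp (115.4 kb), a hypothalamic factor, and Dlx5 (108.2 kb), a factor of limb and craniofacial development. Of the remaining 58, 17 were in state 6 in all groups and 5 in states 1 to 5 in all groups, and none was in state 8 in all groups. Those 5 included Lhx2, which was in state 5 in all groups, and Prrx1, likewise. In SD 3m 90 of the 119 TSS were in state 6, in SD 12m 105 and in CR 12m 97, beside 2543, 3478 and 2895 of all 24963 TSS.

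Fox, Sox and Tbx factors had 22 of 74 TSS in domains (29.7%). These included Tbx4, Sox1 (115.6 kb), a factor of neural progenitors, Sox8 (94.8 kb), Foxb1 (91.4 kb), Foxd1 (72.4 kb) and Tbx15 (65.4 kb). The family also held 28 members in states 1 to 5 in all groups, among them Foxa1, Foxa2 and Foxa3, factors needed to form and maintain the liver. The bHLH list had 18 of 44 in domains (40.9%), led by Olig3 (79.4 kb), of the spinal cord and brainstem, Ptf1a (59.8 kb), of the pancreas and cerebellum, Sim1 (59.4 kb), of the hypothalamus, and Twist1 (56.0 kb), of the mesenchyme. The zinc finger list had 17 of 57 (29.8%), led by Wt1 (89.6 kb), of kidney and gonad, Sall3 (77.4 kb) and the neighbours Zic1 and Zic4 (76.2 kb), of the cerebellum. In this list Gata4 and Gata6, which act in liver, stood in state 1 in all groups.

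Signalling and neuronal lists came lower. Of the Wnt, Fgf, Bmp and Hedgehog ligands 7 of 67 lay in domains (10.4%), with Wnt3a (51.0 kb), Fgf23 (48.0 kb) and Fgf8 (39.0 kb) in the longest, and of ligand antagonists 3 of 20, namely Sfrp2, Nog and Grem1. Potassium, sodium and calcium channel genes, voltage-gated and other, had 11 of 121 (9.09%), with Cacna1e in 105.6 kb, and neurotransmitter receptors 10 of 89 (11.2%), with the serotonin receptor subunits Htr3a and Htr3b in 100.0 kb. Axon guidance and adhesion genes had 5 of 95 (5.26%) and collagens 2 of 42 (4.76%), both near the 3.64% of all genes. Among the channels outside domains, 19 were in state 6 in all groups and 51 in some, beside 619 and 2994 of all 24963 TSS.

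Several lists had few or no members. No TSS of the 49 hepatocyte plasma protein genes or of the 78 cytosolic ribosomal protein genes lay in a domain. Of these 48 and 74 were in states 1 to 5 in all groups, as were 14078 of all 24963 TSS. None of the 32 genes for Polycomb subunits and H3K27 demethylases did, with 29 in states 1 to 5 in all groups, including Ezh2, Eed and Suz12 in state 1. None of the 7 cell cycle inhibitors did, but Cdkn2a, a marker gene of senescence, was in state 7 in SD 3m and state 6 in SD 12m and CR 12m. State 6 in some groups only was also the case for 2994 of all 24963 TSS. Of 93 cytochrome P450 genes 1 did, Cyp11a1 (36.8 kb), which starts steroid hormone synthesis in adrenal and gonad. None of 58 clustered protocadherins and none of 349 vomeronasal receptors did, and 238 of the latter were in state 8 in all groups, as were 4167 of all 24963 TSS.

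**Figure D2:**
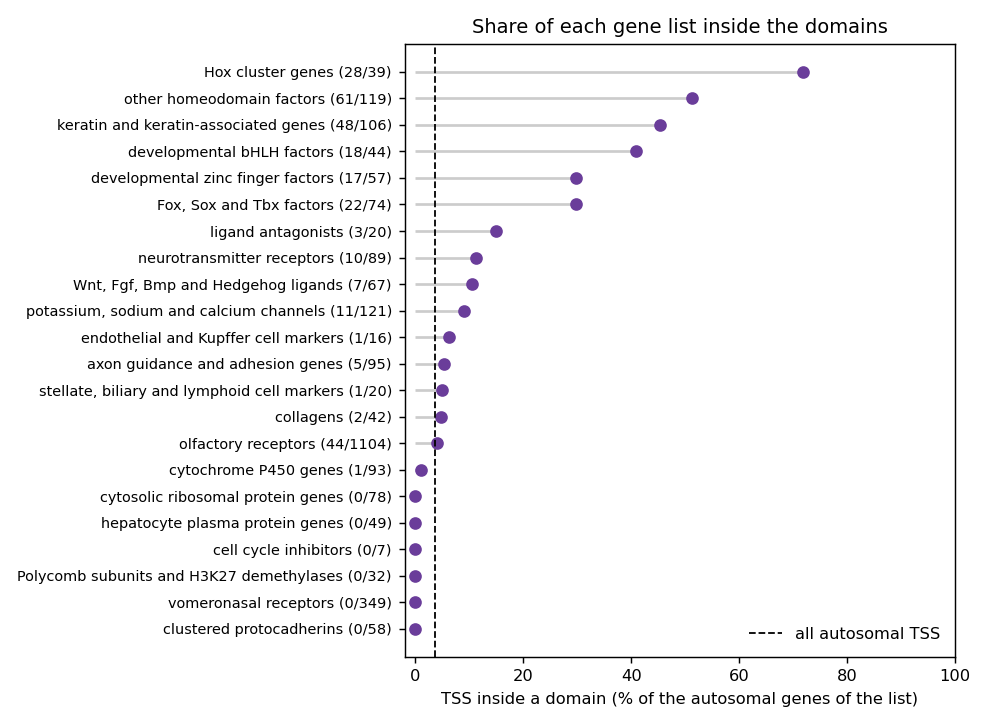
Percent of the autosomal genes of each list whose TSS lay in a domain (horizontal axis), with the number inside and the list size beside each name and the 3.64% of all autosomal TSS as a dashed line. Hox, other homeodomain, keratin, bHLH, zinc finger and Fox, Sox and Tbx genes stood highest, between 29.7% and 71.8%, while olfactory receptors stood at 3.99%.

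The 4 Hox clusters differed in how they were covered. The Hoxc cluster of 113 kb and the Hoxd cluster of 94.8 kb were in state 6 over 100% of their length in every group, and all 9 TSS of each lay in a domain. In the 96.05 kb from Hoxa2 to Hoxa13 only Hoxa9, Hoxa10, Hoxa11 and Hoxa13 were inside, in a domain of 128.4 kb, and state 6 covered 51.8% of it for SD 3m, 62.4% for SD 12m and 57.2% for CR 12m. Hoxa2 and Hoxa4 carried states 1, 2, 4 or 5 in each group. In the Hoxb cluster of 171 kb Hoxb13, Hoxb9, Hoxb8, Hoxb7 and Hoxb6 were in the domain of 159.2 kb and Hoxb1 in another of 44.4 kb, while Hoxb2, Hoxb3 and Hoxb4 carried states 1, 3, 4 or 5 in each group. The 11 Hox genes outside the domains thus belonged to the Hoxa and Hoxb clusters alone, and 1 of them, Hoxa6, was in state 6 in all groups. Hoxb5 was in state 4 in SD 3m and in state 6 in both groups at 12 months, 0.512 kb beyond the edge of the 159.2 kb domain. Low-numbered Hox genes are transcribed nearer the head of the embryo and high-numbered genes nearer the tail.

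**Figure D3:**
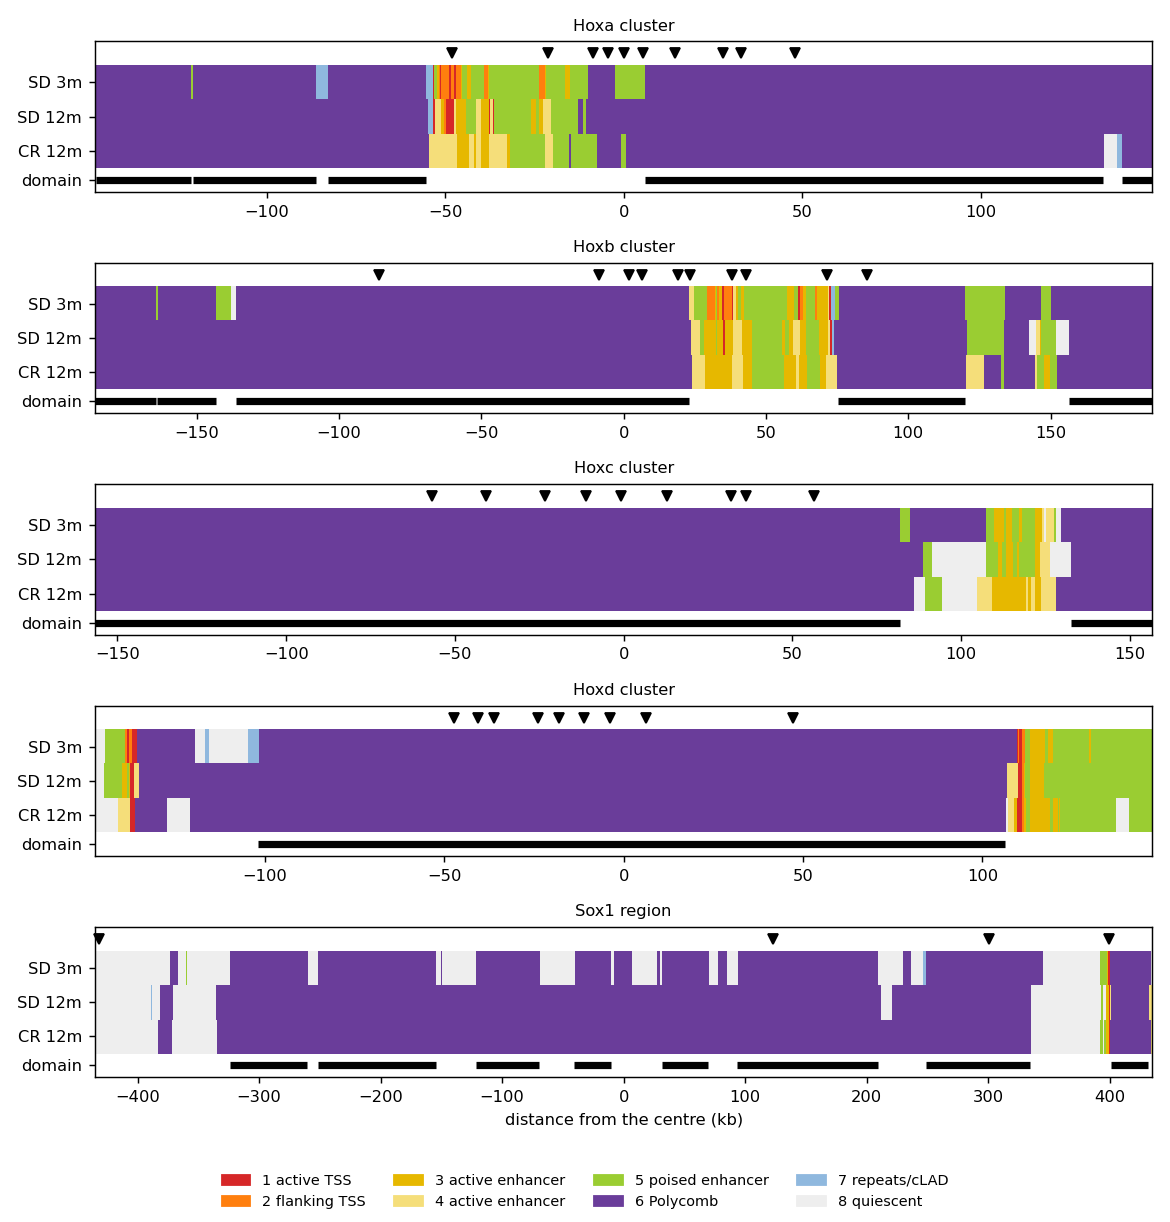
Chromatin state of each 200 bp bin in SD 3m, SD 12m and CR 12m (rows) around the 4 Hox clusters and the Sox1 region, by distance from the centre in kb. Triangles are TSS of Hox genes, or of all protein-coding genes in the Sox1 region, and black bars are domains. Hoxc and Hoxd are state 6 throughout, Hoxa and Hoxb are split by states 1 to 5, and around Sox1 7 domains lie in separate stretches in SD 3m and in a single stretch of 670.2 kb in CR 12m.

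Keratins and keratin-associated proteins had 48 of 106 TSS in domains (45.3%), and these lay in only 11 domains. The domain chr11:99521001-99708600 held 18 protein-coding TSS, the most of any, among them Krt39, Krt40 and members of the Krtap1, Krtap2, Krtap3 and Krtap4 families of the hair shaft. The domain chr11:99895801-100062600 held 11, with the hair keratins Krt31, Krt33a, Krt33b and Krt34. On chromosome 15, chr15:101552801-101706800 held 5, with Krt6a and Krt6b, of stressed epidermis and the hair follicle, and chr15:101780401-101895200 (114.8 kb) held 6, with Krt1 and Krt2 of the upper epidermis. Krt8 and Krt18, the keratins of hepatocytes, were outside, in state 1 in all groups for Krt8 and in states 1, 1 and 2 for Krt18. Another 25 keratin genes were in state 8 in all groups, most of them in Krtap families elsewhere. Olfactory receptors had 44 of 1104 TSS in 23 domains (3.99%), near the 3.64% of all genes, and 529 were in state 8 in all groups. The longest of these, 87.0 kb, held Olfr155, Olfr156, Olfr157 and Olfr159.

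The 2 longest domains without any annotated gene were at Hox clusters. The longest, chr2:74904601-75060200 of 155.6 kb, began 78.8 kb beyond the TSS of Mtx2, the gene next to the Hoxd cluster. The next, chr6:52352401-52472800 of 120.4 kb, began 38.9 kb beyond the TSS of Evx1 at the end of the Hoxa cluster. The third, chr8:12020601-12118200 of 97.6 kb, lay 180 kb from the TSS of Tex29 and 277 kb from that of Sox1. The 2 that followed, chr4:87671801-87766400 of 94.6 kb and chr2:114335601-114420400 of 84.8 kb, had Mllt3 and Zfp770 as the closer protein-coding TSS, at 267 and 134 kb. These 5 held from 1 to 3 CpG-rich bins each.

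Sequence composition was not used to choose the domains. A bin was called CpG-rich at 50% or more G and C with an observed to expected CpG ratio of 0.6 or more. CpG-rich bins were 2.05% of domain bins, against 1.53% in the shorter shared state 6 stretches, 0.577% in bins that were state 6 in SD 3m and state 8 in both 12-month groups, 0.860% in bins that went from state 8 to state 6, and 1.02% of all autosomal bins. GC content was 44.6% in the domains and 41.9% over the autosomes, and CpG dinucleotides numbered 11.2 and 8.51 per kb. Repeats, as soft-masked in the assembly, took 25.4% of domain bases, 24.8% of shorter shared stretches, 39.4% of bins in state 8 in all groups and 33.5% of the autosomes. Of the CpG-rich bins in domains 45.6% lay within 2 kb of a TSS. This was near the 42.8% over all autosomal bins and below the 53.8% in the shorter shared stretches. Away from TSS the share of CpG-rich bins was 1.19% in domains and 0.610% in all autosomal bins.

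The CpG-rich bins were unevenly spread over the domains. At least 1 was present in 861 domains (65.8%), in 367 of the 721 without a TSS (50.9%) and in all 116 with the TSS of a listed transcription factor, whose median was 15 such bins. The 3 domains with the Hoxc cluster, the Hoxd cluster and posterior Hoxb held 90, 97 and 59. The Bmp2 domain held none in 186.0 kb. In the 11 keratin domains CpG-rich bins were 0.911% of bins and in the 23 olfactory receptor domains 0.422%, below the 1.02% of all autosomal bins, while the factor domains had 6.19%. Single domains ranged from 35.8% GC to just under 55%. Exons took 3.47% of domain bases and 2.89% of autosomal bases, and annotated genes 48.1% and 49.4%.

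Promoters with many and with few CG dinucleotides both occurred inside the domains, as they did elsewhere. Of 909 TSS 659 were matched to a RefSeq promoter of 300 bases. The 552 protein-coding promoters in domains held a median of 8.5 CG dinucleotides, with 39.5% at 15 or more and 38.4% at 5 or fewer, and the 15107 elsewhere a median of 15, with 50.4% and 30.1%. Over 4 kb around the TSS both groups had a median of 22.8 per kb, so the difference between the medians was seen only in the 300 bases. The transcription factor promoters in domains had a median of 18 (101 promoters) and those of the same lists elsewhere a median of 17 (118 promoters). Keratin promoters in domains had a median of 3 and elsewhere 3, and olfactory receptor promoters 2 and 1. TATAAA was found in 32 of 40 keratin promoters in domains (80.0%), 27 of 42 elsewhere (64.3%) and 12.9% of the factor promoters in domains. Sox1 and Krtap2-4, printed above with 37 and 2, stand farther apart than these medians. Sox1 held the most of the Fox, Sox and Tbx promoters in domains, whose median was 25.5. The other printed factor promoters, of Nkx2-1 (12), Hoxc4 (9) and Olig3 (4), lay below the factor median of 18.

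Each domain lay within an unbroken state 6 stretch in every group, which could be longer than the domain and could hold other domains too. The 1309 domains lay in 1226 distinct stretches for SD 3m, 1164 for SD 12m and 1187 for CR 12m. The values below are counted per domain, so a stretch with several domains enters once for each. The median length of these stretches was 46.2 kb for SD 3m (quartiles 32.2 and 72.8 kb), 60.2 kb for SD 12m (38.8 and 98.0 kb) and 54.4 kb for CR 12m (35.6 and 87.2 kb). The stretch ended exactly at both domain edges in 280 domains for SD 3m, 124 for SD 12m and 160 for CR 12m. The stretch of SD 12m was the longest of the 3 for 516 domains, that of SD 3m for 391 and that of CR 12m for 389.

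Against SD 3m, the stretch in SD 12m was longer for 773 domains, equal for 8 and shorter for 528, with a median ratio of 1.14. It was at least 1.5 times as long for 470 domains (35.9%), where this held for 47.9% of all 6131 shared stretches, and the reverse, SD 3m at least 1.5 times as long, held for 192 domains (14.7%) and 23.7% of all shared stretches. In CR 12m the stretch was longer for 719 domains, equal for 5 and shorter for 585, with a median ratio of 1.04. It was at least 1.5 times as long as in SD 3m for 390 domains (29.8%), with 41.5% over all shared stretches, and SD 3m exceeded it so for 252 domains (19.3%), with 28.6% over all. Both shares were smaller among the domains than over all shared stretches. The same added length gives a smaller ratio on a longer domain, and how far this entered the shares was not tested. Between the groups at 12 months, the stretch in CR 12m was longer than in SD 12m for 577 domains and shorter for 721. State 6 covered more of the autosomes in SD 12m (12.4%) and CR 12m (9.42%) than in SD 3m (8.26%), and its part in these values was not tested.

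**Figure D4:**
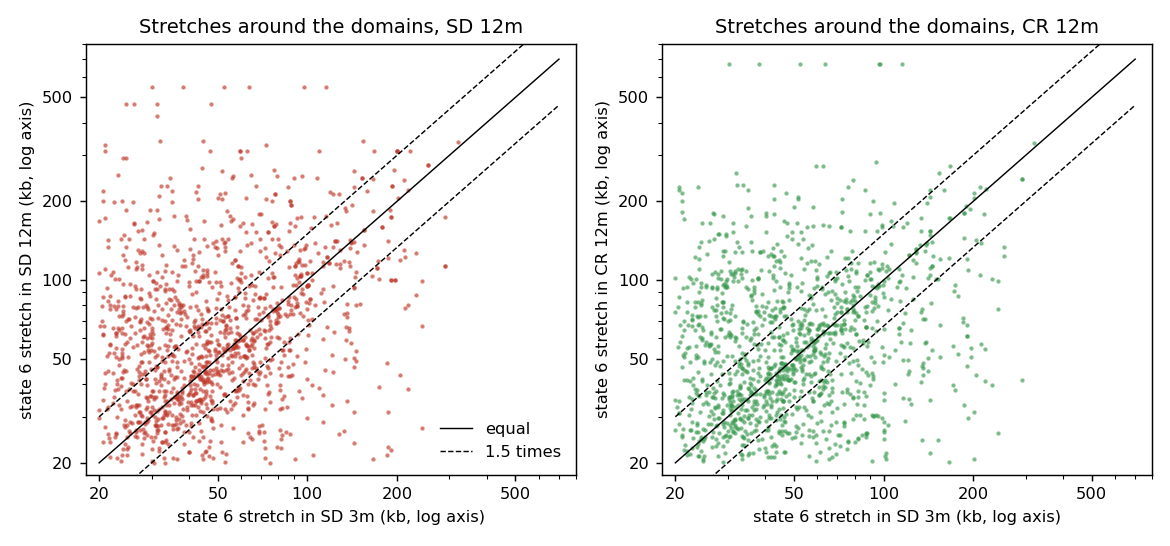
Length in kb of the unbroken state 6 stretch around each of the 1309 domains in SD 12m (left) and CR 12m (right) against that in SD 3m, all on log axes. Points are domains, the solid line marks equal length and the dashed lines 1.5 times longer and shorter. Points lie on both sides of the line, with 773 above it on the left and 719 on the right.

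The parts of the stretches beyond the domains came to 15.4 Mb for SD 3m, 29.0 Mb for SD 12m and 21.6 Mb for CR 12m. Of the bins added in SD 12m 61.6% were state 8 in SD 3m and 34.97% state 6, and 63.1% were state 6 in CR 12m. Of the bins added in SD 3m 49.7% were state 8 in SD 12m and 58.5% were state 8 in CR 12m. Over all bins, chromosome X included, state 8 took 66.1% for SD 3m, 51.6% for SD 12m and 62.7% for CR 12m. Its shares in the added bins were thus slightly below those of all bins. State 6 took 9.48%, 14.4% and 10.3% of all bins in the same order, below its shares in the added bins. Stretches that joined 2 or more domains numbered 77 for SD 3m, 118 for SD 12m and 102 for CR 12m, and joined 160, 263 and 224 domains.

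The longest such stretch was around Sox1. In CR 12m state 6 ran without a break over chr8:11937401-12607600, 670.2 kb, with 7 domains that together covered 72.2% of it. In SD 12m the same window held 2 stretches, the longer of 547.2 kb with 6 of the domains, and state 6 covered 98.7% of it. In SD 3m it held 12 stretches, none longer than 115.6 kb, with 77.0% in state 6 and 22.7% in state 8. No bin of the window was in states 1 to 5 in any group. The window contained the TSS of Sox1, of Sox1ot, a noncoding transcript that overlaps Sox1, and of Spaca7, a protein of the sperm acrosome. The domain chr8:12231801-12262000, of 30.2 kb in SD 3m, was therefore in a stretch 18.1 times as long in SD 12m and 22.2 times as long in CR 12m, the largest ratio found in CR 12m.

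The largest ratio in SD 12m was at chr8:87428201-87452800, a domain of 24.6 kb that was its own stretch in SD 3m and lay in 472.0 kb in SD 12m and 164.8 kb in CR 12m. This stretch of SD 12m also held 2 more of the 5 largest ratios, at 18.02 and 15.1, and lies around Cbln1, which encodes a synapse organiser of the cerebellum. The domain chr6:126622601-126643600, 2.20 kb from the TSS of the potassium channel gene Kcna1, lay in 21.0 kb for SD 3m, 329.6 kb for SD 12m and 182.8 kb for CR 12m. The domain chr2:165236001-165256600, 1.26 kb from the TSS of the cadherin gene Cdh22, lay in 20.6, 201.4 and 228.0 kb, and chr11:96116201-96136800, with the TSS of Ttll6 next to Hoxb13, in 20.6, 218.8 and 221.2 kb.

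Among the 15 longest domains the Hoxc stretch differed little, at 321.2 kb for SD 3m, 338.8 kb for SD 12m and 333.2 kb for CR 12m. The Tbx4 stretch measured 201.8, 205.2 and 205.8 kb in the same order, and that at Bmp2 189.2, 186.0 and 192.8 kb. The Nkx6-1 stretch measured 143.0, 260.8 and 207.4 kb and the Krt6a stretch 154.0, 340.4 and 257.6 kb. In the opposite direction, the stretch around the Creb5 domain measured 291.0 kb for SD 3m, 173.6 kb for SD 12m and 243.6 kb for CR 12m, and that of Skap1 186.4, 141.0 and 144.6 kb. The gene-free domain beside Evx1 lay in 254.0 kb for SD 3m, 275.2 kb for SD 12m and 123.6 kb for CR 12m, where only CR 12m had the short stretch.

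At the edges, the first bin outside a domain had left state 6 in at least 1 group by construction, and in 1 group alone at nearly all of the 2618 edges. That group was SD 3m at 1074 edges (41.02%), CR 12m at 772 (29.5%) and SD 12m at 689 (26.3%), and 2 or 3 groups left state 6 together at 83 (3.17%). Of first bins that were not state 6, state 8 made up 75.3% for SD 3m, 79.4% for SD 12m and 83.6% for CR 12m, and states 1 to 5 21.8%, 18.9% and 15.8%. Within 10 kb outside, state 8 made up 76.3%, 73.8% and 77.4% of bins not in state 6. State 8 took 66.1%, 51.6% and 62.7% of all bins, with those of state 6 and chromosome X counted in. Its share of all bins outside state 6 was not computed, so the edge values are not read as particular to the edges. Among first bins in states 1 to 5, state 5 (poised enhancer) was the most frequent in SD 3m with 194 edges, against 32 in SD 12m and 83 in CR 12m. State 4 (active enhancer) was the most frequent in SD 12m with 106, against 39 in SD 3m and 45 in CR 12m. Over all bins, chromosome X included, state 5 took 5.40% for SD 3m, 2.70% for SD 12m and 2.39% for CR 12m and state 4 took 6.29%, 9.21% and 8.08%. Both states thus differed between SD 3m and SD 12m in the same direction there. Between the groups at 12 months state 5 did not, as CR 12m had more such edges than SD 12m but a smaller share over all bins.

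Farther out, state 6 did not return to its genome share within 41 kb. In the first kb outside, 54.7% of bins were state 6 for SD 3m, 67.6% for SD 12m and 64.3% for CR 12m, and from 10 to 11 kb outside the values were 40.7%, 47.9% and 42.4%, beside 8.26%, 12.4% and 9.42% of all autosomal bins. From 40 to 41 kb outside they were still 38.0%, 43.3% and 39.4%. Bins of neighbouring domains, which are state 6 in all groups by the rule, were not left out of these windows. Gaps of 20 kb or less between neighbouring domains numbered 210. Part of the state 6 outside the edges is thus the selection itself, and how large a part was not tested. States 1 to 5 took 10.2%, 6.96% and 6.71% of bins in the first kb and 20.1%, 19.7% and 19.9% from 40 to 41 kb. Annotated TSS were most frequent just outside the edges, at 23.3 per Mb in the first kb and 27.1 per Mb in the next. The last kb inside had 19.5 per Mb, each kb from 10 to 41 kb outside between 11.5 and 20.6, and all autosomes 10.1. The rule did not use TSS positions, but any bin outside state 6 ends a domain, also one at a TSS. How far this entered the peak was not tested. CpG-rich bins also peaked from 1 to 2 kb outside, at 2.94%, and took between 1.16% and 1.72% in each kb from 10 to 41 kb outside.

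**Figure D5:**
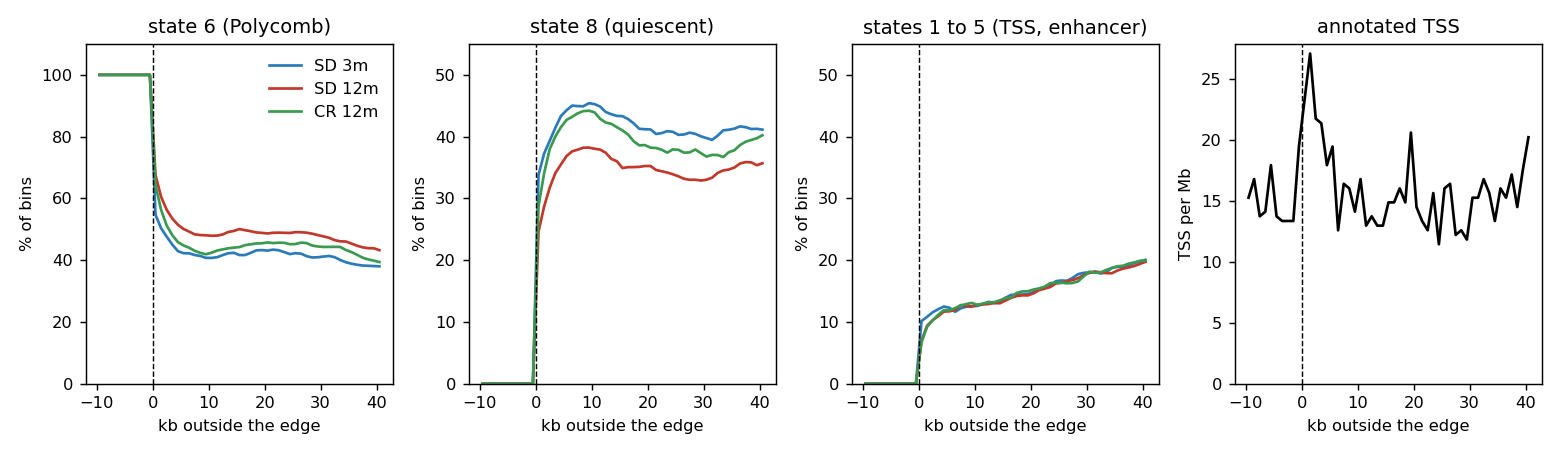
Percent of 200 bp bins in state 6, state 8 and states 1 to 5 in SD 3m, SD 12m and CR 12m, and annotated TSS per Mb, by distance in kb from 10 kb inside to 41 kb outside the domain edges (dashed line), averaged over both edges of all domains. State 6 is 100% inside by selection and stays between 38.0% and 43.3% at 40 to 41 kb, and the TSS curve peaks at 27.1 per Mb from 1 to 2 kb outside. Bins of neighbouring domains, state 6 by selection, are included in the windows outside.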

How the data were processed

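Per the labels and the study's methods, the authors aligned reads to mm10 with BWA 0.6.2-r126, removed poorly mapped and duplicate reads with SAMtools 0.1.18, merged the libraries of a group and learned an 8-state ChromHMM model on 200 bp bins. The deposited files hold 1 state label per bin (no count or score), for SD 3m, SD 12m and CR 12m, and no depth. From these labels, domains were built with Python 3.11.15 and numpy 2.4.6 (bins in state 6 in all groups, at least 20 kb, autosomes). Genes, TSS and sequence came from RefSeq on GRCm38.p6, whose chromosome lengths matched the bins of the files. Bins with unassembled bases were left out of composition, and 1 gene is not reported singly here. The finding of domains was tested on simulated data. The members, the gene lists and the rule for naming were chosen with earlier results of these data known. Named were the 15 longest domains, the 5 with most protein-coding TSS, the 5 longest without a gene, up to 8 genes per list, 4 control genes, the lengths at the limit and the 5 largest stretch ratios per group, and beside these, from gene lists, members outside the domains chosen after their states were seen. With 1 segmentation per group no test was run. Alternatives changed the minimum length, gaps, chromosome X, the groups required, the TSS, the CpG limits and the stretch ratio.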

Additional observations from a re-analysis of the deposited data

Results flagged for a closer look

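Chromosome X was not part of the selection. It held 395 stretches of 20 kb or more in state 6 in all groups, which covered 18.4 Mb, or 10.7% of the chromosome, against 2.15% of the autosomes, with a median of 35.4 kb and a longest of 225.6 kb.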

How the results depend on the processing

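No paired analysis was possible because each group has 1 segmentation of merged libraries, and for the same reason no library could be left out. The count of 1309 domains was 2721 with a minimum of 10 kb, 279 with 50 kb and 2606 with SD 12m and CR 12m alone. It stayed within 1.5 times of 1309 under the other alternatives: 1309 with gaps of 1 bin bridged, 1311 with gaps of up to 1 kb bridged, 1704 with chromosome X, 1711 with SD 3m and SD 12m alone and 1560 with SD 3m and CR 12m alone. The share of TSS in domains (3.64%) was 4.98% from 10 kb, 1.61% from 50 kb, 4.11% with chromosome X, 4.44% with SD 3m and SD 12m, 4.15% with SD 3m and CR 12m and 6.06% with SD 12m and CR 12m. In the same order the share of CpG-rich bins (2.05%) was 1.91%, 2.257%, 1.65%, 1.76%, 1.88% and 1.53%, and it was 1.19% without bins within 2 kb of a TSS and 1.27% with limits of 55% GC and 0.65. Domains with a SD 12m stretch at least 1.5 times that of SD 3m (35.9%) were 41.5% from 10 kb and 25.8% from 50 kb, and 24.1% had a stretch 2 times as long. For CR 12m (29.8%) the values were 35.4%, 17.9% and 20.6%. The median ratios stayed above 1 in both groups in these runs. Of 81 alternative values 18 stayed within the interval or factor set for them and 63 moved. None reversed, but most of these values are counts, lengths or percentages, which have no direction to reverse. The depth of the merged data is unknown, so how much of the difference in state 6 coverage between groups comes with depth was not tested.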
